A study of Arabidopsis thaliana with 6 samples.

Results

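The mitochondrial genome of Arabidopsis thaliana was examined as one gene set: every row of the deposited count table whose identifier starts with ATMG, of any biotype, which gave 83 of 23640 rows. The rows comprised 76 annotated as protein-coding, 4 tRNAs and 3 rRNAs. By name, 33 encoded known proteins and 43 were open reading frames with no established product. RNA came from whole 14-day-old seedlings of the col ecotype grown in vitro, in 3 libraries of plants carrying atrx-1, an allele of the chromatin remodeler gene ATRX, and 3 libraries of wild-type plants. No other allele, transgene or treatment is given for either group, and the sources used here do not give the position of the atrx-1 lesion. Total RNA had been depleted of ribosomal RNA, which keeps transcripts without a poly(A) tail, as organelle transcripts mostly are.

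Library totals ran from 2887834 to 14001726 counts in atrx-1 and from 936243 to 3624088 in the wild type, of which 24776 to 79093 and 11077 to 36602 lay on mitochondrial rows. ATRX itself had 18, 3 and 6 counts in the atrx-1 libraries and 16, 5 and 18 in the wild-type libraries, with a log2 fold change of -2.09 ± 0.38 (SE; edgeR adjusted p = 0.0536). Summed over 5 leaf markers, normalised counts per 1000000 (CPM, after TMM scaling) were 12100 to 13448 in atrx-1 and 10081 to 15166 in the wild type. Summed over 6 root markers they were 8.65 to 14.4 CPM in atrx-1 and 14.99 to 22.0 CPM in the wild type, which did not overlap. Of 3 seed markers the sum was 14.7 to 38.9 CPM in atrx-1 and 37.1 to 124 CPM in the wild type, and of 4 flower markers it stayed under 2.2 CPM in every library. The part of tissue makeup in the results below was not tested, and in whole seedlings fewer mitochondria per cell and less RNA per mitochondrion cannot be told apart. No label states that replicates were separate cultures, and the spread behind each p-value may then be technical.

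Plant mitochondrial genomes retain a small set of genes for the respiratory chain, for cytochrome c maturation and for the mitochondrial ribosome, while most mitochondrial proteins are encoded in the nucleus. Their transcripts are made by phage-type RNA polymerases, spliced, edited from C to U and trimmed by nuclear-encoded factors, and several genes, such as nad1, nad2 and nad5, are assembled by trans-splicing from separately transcribed pieces, which the table lists as rows A, B and C. In the Col ecotype a large piece of mitochondrial DNA is also inserted near the centromere of nuclear chromosome 2. That insertion bears directly on the measurement, because a read from a mitochondrial transcript can match both places.

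The extent of this overlap was measured in the TAIR10.1 reference, whose mitochondrial sequence is of another assembly than the one in the table. Matches of at least 200 nt and 98% identity covered 72.7% of the mitochondrial genome. On chromosome 2 they formed one block at chr2:3239038-3509765, and 92 of the 94 nuclear rows of the table that lay at least 90% within such matches were on that chromosome. The coding sequence of atp9, the membrane ring subunit of ATP synthase and the member with the smallest p between genotypes, was identical in both places over its 225 nt. It is shown for that reason as it stands on chr2:3251856-3252080, minus strand, TAIR10.1, with its first and last codons in capitals. In that reference a read lying within it cannot be assigned to one genome.
atp9: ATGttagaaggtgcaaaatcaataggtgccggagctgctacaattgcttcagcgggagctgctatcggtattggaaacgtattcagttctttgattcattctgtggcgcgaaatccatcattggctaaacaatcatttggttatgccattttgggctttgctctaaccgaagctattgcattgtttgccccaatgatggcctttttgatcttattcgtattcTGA

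Coding sequences of cob, cox3, atp1, atp8, nad3 and rps12 were likewise identical to chromosome 2 over their full length. The maturase gene matR differed at 5 of 1971 bases. Bases 25 to 85 of its coding sequence are shown as a case where a read can be assigned in that reference. The base in capitals marks the first difference, G55A, given as the mitochondrial base, the position from 1 at the coding start, and the chromosome 2 base. The chromosome 2 stretch lies at chr2:3402613-3402673, minus strand, TAIR10.1.
matR, mitochondrial genome: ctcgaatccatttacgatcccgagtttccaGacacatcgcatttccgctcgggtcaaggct
matR, chromosome 2: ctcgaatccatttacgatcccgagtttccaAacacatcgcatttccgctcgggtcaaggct

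Of the 32 named protein rows long enough for 50 nt windows, 6 had no window anywhere in the nuclear chromosomes: COX1, NAD9, NAD4L, NAD5C, ORF25 (atp4, an ATP synthase stalk subunit) and CCB206 (ccmB, a heme transport subunit). These 6 rows held 43401 counts over the 6 libraries, and no 50 nt window of their coding exons had an identical nuclear place. Shorter stretches can still match, as 37 nt of cox1 did on chromosome 2. Another 18 rows had at least 90% of their windows in the nuclear genome and held 40095 counts, and 8 rows lay between. Of the 33 named protein rows 28 passed the filter on low counts, and the 5 that did not, COB, NAD3, NAD1A, CCB382 and RPSL2, all belonged to the 18 with nearly complete nuclear copies. The sources used here do not give how reads with several matches were treated.

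COB, which encodes the cytochrome b subunit of complex III, showed the division most plainly. Its mitochondrial row had 0, 0 and 0 counts in the atrx-1 libraries and 1, 0 and 0 in the wild-type libraries. AT2G07727, the chromosome 2 row that holds the identical coding sequence in TAIR10.1, had 1901, 492 and 369 counts in atrx-1. It had 405, 120 and 349 in the wild type. This subunit of complex III therefore had no measurable mitochondrial row, and its only readout was the chromosome 2 row, with a log2 fold change of 0.0037 ± 0.18 (SE; edgeR adjusted p = 0.999).

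Across 19 mitochondrial rows paired by sequence with a chromosome 2 row, the nuclear row held more counts in 9. A chromosome 2 row can span more sequence than its partner. That of NAD7 runs over chr2:3388454-3394516, while the mitochondrial row has a length of 1185 nt. The part of such extra sequence in the counts was not tested. The paired mitochondrial rows held 46308 counts in all and the chromosome 2 rows 44282. The chromosome 2 row took 95.5% ± 0.488 of the ATP1 pair in atrx-1 and 96.5% ± 0.512 in the wild type (SD, n = 3 each). For COX3, a cytochrome oxidase core subunit, it took 39% ± 3.25 in atrx-1 and 40.3% ± 1.36 in the wild type (SD, n = 3 each). YMF19 (atp8) kept all of its 121 counts on the mitochondrial row, although its copy is identical in TAIR10.1. Pairs identical in that reference thus differed in which row held the counts. Whether they are also identical in the mitochondrial sequence of the table was not tested.

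**Figure D1:**
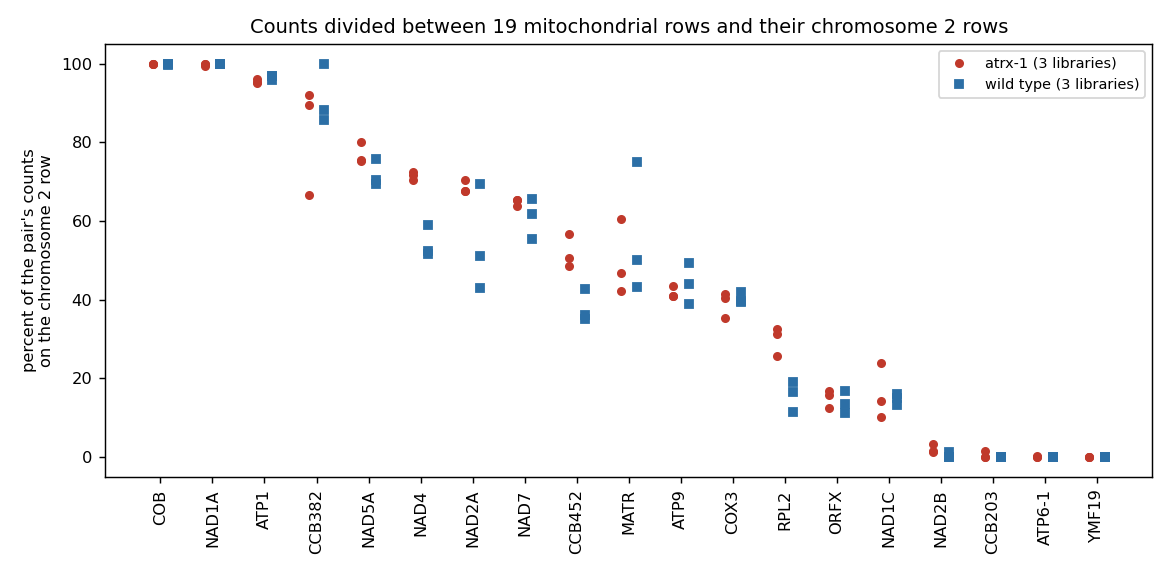
Percent of the counts of each pair that lay on the chromosome 2 row, for 19 pairs ordered by the value over all libraries, with atrx-1 libraries as circles and wild-type libraries as squares. The pairs run from COB and NAD1A, at about 100%, to YMF19 at 0%, and the libraries of a pair mostly lie close together.

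The percent on the chromosome 2 row did not overlap between genotypes in 3 of the 19 pairs (15.8%), while the levels of 23.6% of all features tested did not overlap. These shares are of unlike measures, and some pairs, such as YMF19 and COB, lay at or near 0% or 100% in every library. Differences in the percent between genotypes were not tested further, and the values of the 3 pairs are given as a description. For NAD4, a membrane-arm subunit of complex I, the chromosome 2 row took 70.5%, 72.4% and 71.6% in atrx-1 libraries 1, 2 and 3 and 59.1%, 52.4% and 51.5% in wild-type libraries 1, 2 and 3. For RPL2, a large-subunit ribosomal protein, it took 29.9% ± 3.68 in atrx-1 and 15.7% ± 3.79 in the wild type (SD, n = 3 each). For CCB452 (ccmFC, a cytochrome c heme lyase subunit) it took 51.9% ± 4.22 in atrx-1 and 38% ± 4.18 in the wild type (SD, n = 3 each). In wild-type library 2 that pair held only 13 mitochondrial and 7 chromosome 2 counts. A further chromosome 2 row described as matching CCB452, AT2G07815, was not part of the pair. It had 139, 33 and 20 counts in atrx-1 and 48, 9 and 28 in the wild type. The percent with that row added was not computed, and the groups may then overlap. The rows of a pair need not cover the same stretch. The chromosome 2 row of NAD4 runs over chr2:3418229-3424177, while its mitochondrial row has a length of 1488 nt. These percentages are therefore not a division of the same reads alone. NAD4 had a log2 fold change of -0.45 ± 0.20 on its mitochondrial row and 0.58 ± 0.23 on its chromosome 2 row (SE), with edgeR adjusted p of 0.234 and 0.191. With a correction for gene length, described below, these were -0.49 and 0.028, with edgeR adjusted p of 0.417 and 0.989.

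Mitochondrial rows together took 0.702% ± 0.181 of all counts in atrx-1 and 0.929% ± 0.335 in the wild type (SD, n = 3 each), a difference of -0.227 percentage points that did not exceed the spread of the libraries (exact permutation test, two-sided, p = 0.4, adjusted p = 0.65 over the 13 shares and ratios compared; with 3 libraries a group the smallest possible p is 0.1). The values were 0.565%, 0.634% and 0.907% in atrx-1 libraries 1, 2 and 3 and 1.05%, 1.18% and 0.55% in wild-type libraries 1, 2 and 3, so that the groups overlapped. The widest Wilson 95% interval, in wild-type library 2, ran from 1.16% to 1.21% and covers counting error only.

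Most of that spread lay in ribosomal RNA. The share of mitochondrial counts on RRN26, RRN18 and RRN5 was 29.1%, 38.9% and 55.2% in atrx-1 and 50.5%, 65.7% and 32.5% in the wild type. Without these rows, mitochondrial genes took 0.40%, 0.387% and 0.407% of all counts in atrx-1 and 0.522%, 0.406% and 0.371% in the wild type (exact permutation test, p = 0.8, adjusted p = 0.8). The SD between libraries was then 0.0099 percentage points in atrx-1 and 0.0788 in the wild type.

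**Figure D2:**
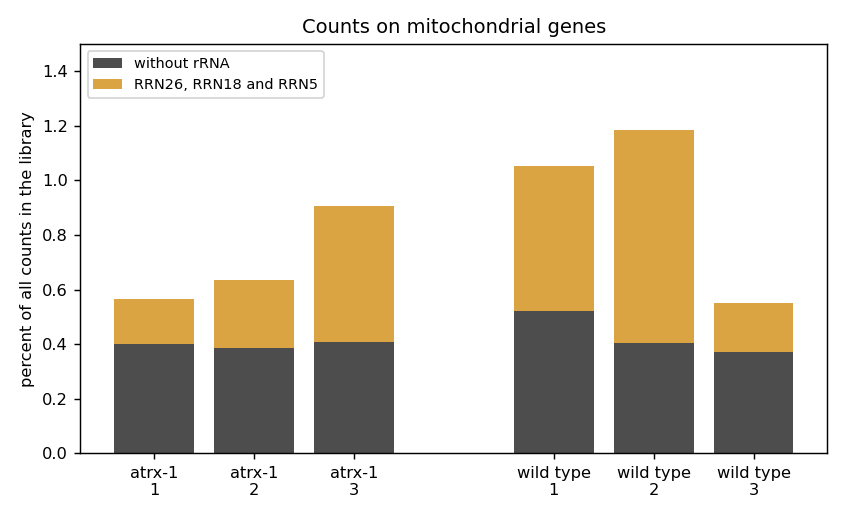
Percent of all counts in each library that lay on mitochondrial genes, with rRNA rows stacked on the other rows, for 3 atrx-1 and 3 wild-type libraries. The rRNA portion ranges from 0.165% to 0.501% in atrx-1 and from 0.179% to 0.777% in the wild type, while the portion without rRNA stays between 0.371% and 0.522%.

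Levels of the members, expressed per length, spanned a wide range. ATP9 was highest, at 1437 ± 92.7 CPM per kb in atrx-1 and 2708 ± 717 CPM per kb in the wild type (SD, n = 3 each). Among protein genes, COX1, the catalytic subunit of cytochrome oxidase, NAD5C, NAD9 and COX2 followed, each between 379 and 628 CPM per kb in either group. MATR was the lowest named protein gene that passed the filter, at 2.58 ± 0.51 CPM per kb in atrx-1 and 1.64 ± 0.785 CPM per kb in the wild type (SD, n = 3 each). Pieces of one protein also differed: of the trans-spliced NAD5, piece C stood at 493 ± 6.8 CPM per kb in atrx-1, while piece A, whose chromosome 2 row held most counts of the pair, stood at 16.7 ± 2.30 (SD, n = 3 each). The order of levels was much the same everywhere, with a Spearman correlation over the 42 tested rows of 0.929 to 0.987 between any 2 libraries, a description of rows that share length and genome position.

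**Figure D3:**
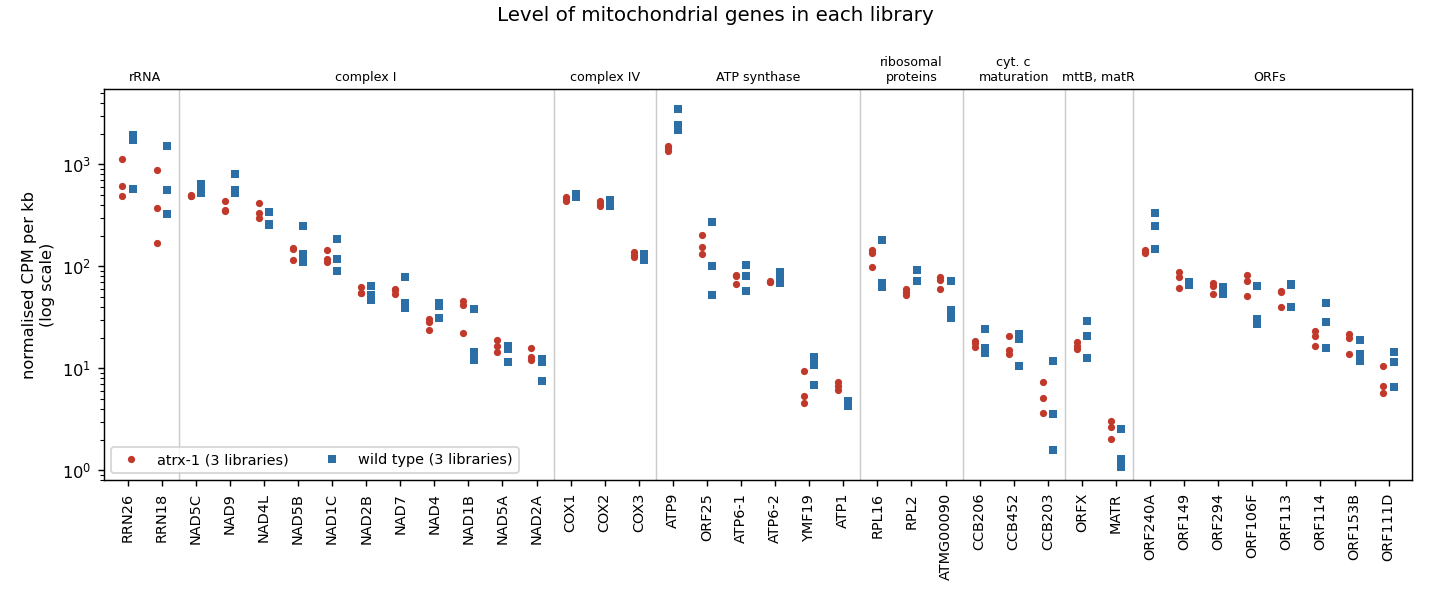
Normalised CPM per kb (log scale) of 38 mitochondrial genes in 3 atrx-1 libraries (circles) and 3 wild-type libraries (squares), grouped by role. Levels fall from ATP9, at 1344 or more in every library, to MATR, below 3.1, and the libraries of most genes lie close together, with RRN18, ORF25 and CCB203 the most spread.

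Of the 83 rows, 81 had a count in at least one library, 48 in all 6, and 42 passed the filter and were tested. None passed an edgeR adjusted p of 0.05, against 0.116% of all 13819 features tested, a share at which a count of 0 says nothing particular about a set of this size. At an unadjusted p under 0.05 there were 8 of 42 (19.05%), against 19.5% of all features, and the groups did not overlap in 8 of 42 (19.05%), against 23.6%. Fold changes lay on both sides, 18 above and 24 below 0, with a median of -0.07 on the log2 scale beside 0.01 over all features. With libraries scaled to their totals without TMM the division was 30 above and 12 below, with a median of 0.13 beside 0.22 over all features. DESeq2 called 2 rows lower in atrx-1, ATP9 and NAD9, among 2.83% of all features that it tested. With libraries scaled to their mitochondrial totals edgeR called 1 row, ORF106F, higher in atrx-1, among 4.23% of all features. Without wild-type library 1 edgeR called 5 rows, with RPL16, ATMG00090, ORF25 and ORF106F higher and ATP9 lower in atrx-1, among 2.61% of all features. The sum of all rows without rRNA was 3743 ± 106 CPM in atrx-1 and 4662 ± 696 CPM in the wild type (SD, n = 3 each).

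**Figure D4:**
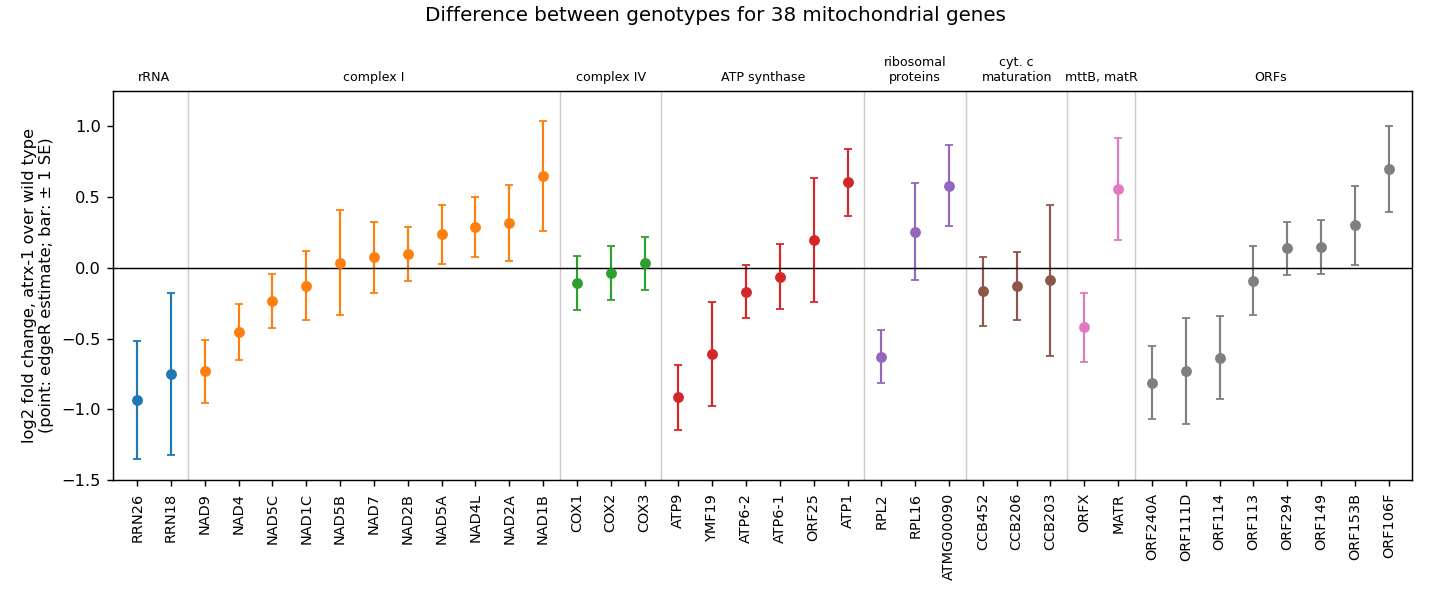
Log2 fold change of atrx-1 over wild type for 38 mitochondrial genes (points, edgeR estimate; bars, ± 1 SE), grouped by role and ordered within each group. Estimates run from -0.93 for RRN26 to 0.70 for ORF106F, and no role lies wholly on one side except the rRNA genes and the cytochrome c maturation genes, the last of which turn positive with libraries scaled to their totals.

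In complex I, the NADH dehydrogenase that feeds electrons into the chain, 11 of 13 rows were tested, 7 above and 4 below 0, with a median log2 fold change of 0.07. NAD9, a subunit of the peripheral arm, had 204, 198 and 249 CPM in atrx-1 libraries 1, 2 and 3, against 457, 323 and 299 CPM in wild-type libraries 1, 2 and 3. Every atrx-1 library lay below every wild-type library. Its log2 fold change was -0.73 ± 0.22 (SE; edgeR adjusted p = 0.110), and no nuclear copy of its sequence was found in TAIR10.1. NAD5C had 270, 263 and 269 CPM in atrx-1 and 306, 286 and 349 CPM in the wild type, also without overlap, with a log2 fold change of -0.23 ± 0.19 (SE; edgeR adjusted p = 0.532). The highest estimate of the complex was that of NAD1B, at 0.65 ± 0.39 (SE; edgeR adjusted p = 0.383), where 12.4, 11.3 and 6.06 CPM in atrx-1 overlapped with 10.5, 3.28 and 3.91 CPM in the wild type. Without wild-type library 1 its estimate was 1.497 (edgeR adjusted p = 0.0663). NAD5B, an exon of 22 nt that joins the other pieces of NAD5, was still counted, with 48, 14 and 8 counts in atrx-1 and 8, 5 and 9 in the wild type.

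In complex IV, cytochrome oxidase, all 3 rows were tested, 1 above and 2 below 0. COX1 had 698, 721 and 759 CPM in atrx-1 libraries 1, 2 and 3 and 819, 752 and 775 CPM in wild-type libraries 1, 2 and 3, and its within-group SD of 0.06 on the log2 scale was the smallest of all tested members. The log2 fold changes of COX1, COX2 and COX3 were -0.11 ± 0.19, -0.04 ± 0.19 and 0.03 ± 0.19 (SE), with edgeR adjusted p from 0.809 to 0.955. Under scaling to the library total or to the mitochondrial total, or with a correction for gene length, the sign of COX2 turned, and under both total scalings so did that of COX1.

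ATP synthase genes lay on both sides of 0, with log2 fold changes from -0.92 to 0.61 in 6 tested rows. ATP9 (Mt:278649-279152 in TAIR10) had 771, 678 and 724 CPM in atrx-1 libraries 1, 2 and 3, against 1775, 1093 and 1227 CPM in wild-type libraries 1, 2 and 3. All atrx-1 libraries lay below all wild-type libraries, 1.89-fold lower by the fit, with a log2 fold change of -0.92 ± 0.23 (SE; edgeR adjusted p = 0.0782). Its chromosome 2 row, AT2G07671, gave -1.05 ± 0.24 (SE; edgeR adjusted p = 0.0675), and both rows summed gave -0.97 ± 0.23 (SE; edgeR adjusted p = 0.0734). ATP9 accounted for 19.3% ± 0.70 of the mitochondrial counts without rRNA in atrx-1 and 29% ± 3.21 in the wild type (SD, n = 3 each). COX1 accounted for 19.4% ± 1.13 in atrx-1 and 16.9% ± 1.68 in the wild type (SD, n = 3 each). Both percentages have the same denominator, so a lower share of ATP9 raises that of other rows. Counts on chromosome 2 rows are not part of that denominator. In CPM, COX1 stood at 726 ± 31.2 in atrx-1 and 782 ± 34.1 in the wild type (SD, n = 3 each). The ratio of ATP9 to COX1 counts, which no library scaling can alter, was 1.11, 0.94 and 0.953 in atrx-1 and 2.17, 1.45 and 1.58 in the wild type (exact permutation test, two-sided, p = 0.1, the smallest possible; adjusted p = 0.65; n = 3 each). ATP9 is also among the shorter rows, and with the length correction described below its log2 fold change was -0.43 (edgeR adjusted p = 0.52).

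ATP1, the catalytic-head alpha subunit, was the only tested member with every atrx-1 library above every wild-type library. It had 11.1, 10.3 and 9.25 CPM in atrx-1 and 7.22, 6.56 and 6.52 CPM in the wild type, with a log2 fold change of 0.61 ± 0.24 (SE; edgeR adjusted p = 0.188). These values rest on 29 to 162 counts per library in atrx-1 and 6 to 24 in the wild type. The chromosome 2 row held 95.6% of the pair. In TAIR10.1 it includes the same coding sequence, but it spans chr2:3361474-3364127, beside 1524 nt for the mitochondrial row. Both rows summed gave 0.20 ± 0.20 (SE; edgeR adjusted p = 0.623). ATP6-1 and ATP6-2 encode the proton channel subunit and share 71.1% of their 50 nt windows in the reference, so that reads from the shared stretch may be exchanged. They had log2 fold changes of -0.06 ± 0.23 and -0.17 ± 0.19 (SE). ORF25 varied widely within the wild type, with 118, 89.9 and 77.2 CPM in atrx-1 and 157, 57.9 and 30.3 CPM in the wild type.

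Among ribosomal protein genes, RPL2 had 58.3, 55.3 and 62.8 CPM in atrx-1 and 96.9, 75.4 and 97.4 CPM in the wild type, without overlap, with a log2 fold change of -0.63 ± 0.19 (SE; edgeR adjusted p = 0.108). With its chromosome 2 row added this was -0.37 ± 0.20 (SE; edgeR adjusted p = 0.325). RPL16 and ATMG00090, a structural constituent of the ribosome that the table leaves without a name, overlap on the genome, and their reads could not be told apart where they do. ATMG00090 had 132, 124 and 99.8 CPM in atrx-1 and 121, 62.3 and 52.1 CPM in the wild type, and its log2 fold change was 0.58 ± 0.29 (SE; edgeR adjusted p = 0.285). In RPL16, ATMG00090, ORF25 and ORF106F alike, wild-type library 1 stood above the other wild-type libraries and close to or above the atrx-1 libraries.

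The 3 tested cytochrome c maturation genes, which supply the heme attachment machinery, had log2 fold changes from -0.17 to -0.09 with edgeR adjusted p from 0.759 to 0.957, and turned positive, at 0.053 to 0.10, with libraries scaled to their totals. ORFX (mttB, a TatC-like translocase) and MATR, the maturase that acts in intron splicing, stood at -0.42 ± 0.24 and 0.56 ± 0.36 (SE), with edgeR adjusted p of 0.368 and 0.420. MATR lies inside the span of NAD1C, so that reads from NAD1C introns may count towards it.

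Of the ribosomal RNA genes, RRN26, the large-subunit rRNA, had 1251, 1592 and 2889.7 CPM in atrx-1 libraries 1, 2 and 3 and 4477, 4989 and 1484 CPM in wild-type libraries 1, 2 and 3. The groups overlapped, and the log2 fold change of -0.93 ± 0.42 (SE; edgeR adjusted p = 0.242) was the lowest estimate of the tested members. RRN18, the small-subunit rRNA, had the largest within-group SD of the tested members, 1.16 on the log2 scale, and a log2 fold change of -0.75 ± 0.57 (SE; edgeR adjusted p = 0.501). RRN5 had 1, 3 and 25 counts in atrx-1 and 0, 1 and 0 in the wild type. The count of RRN18 per count of RRN26 was 0.265, 0.456 and 0.593 in atrx-1 and 0.242, 0.594 and 0.422 in the wild type. Ribosomal RNA was removed from the RNA before sequencing, so these rows show what remained after that step, and its efficiency in each library was not tested. Transfer RNAs were at or near 0, with 0 to 7 counts per library in each of the 4 rows, and none was tested.

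Of the 43 open reading frames 12 passed the filter, 5 above and 7 below 0, with a median log2 fold change of -0.07. Those within 1000 nt of a named gene held a median of 75 counts over the 6 libraries and 8 of 16 passed the filter. Those farther away held a median of 12 counts and 4 of 27 passed. Nuclear copies of open reading frames were not assessed, and their part in these counts was not tested. ORF122A had 1 count in all, while AT2G07706, described as its match, had 99, 17 and 11 in atrx-1 and 18, 1 and 14 in the wild type. ORF113 had 540 in all, and its described match AT2G07798 had 55, 23 and 14 in atrx-1 and 13, 3 and 22 in the wild type. The highest was ORF240A, which lies 12826 nt from the nearest named gene. It had 103, 104 and 97.0 CPM in atrx-1 libraries 1, 2 and 3 and 240, 108 and 180 CPM in wild-type libraries 1, 2 and 3, without overlap, and a log2 fold change of -0.81 ± 0.26 (SE; edgeR adjusted p = 0.120). ORF106F, 113 nt from NAD1B, had 26.7, 23.1 and 16.6 CPM in atrx-1 and 20.8, 9.83 and 8.80 CPM in the wild type, with overlap, and a log2 fold change of 0.70 ± 0.30 (SE; edgeR adjusted p = 0.232), or 1.34 without wild-type library 1 (edgeR adjusted p = 0.0310). ORF111D and ORF114 stood at -0.73 ± 0.38 and -0.63 ± 0.29, and ORF149, ORF294, ORF153B and ORF113 between -0.09 and 0.30. ORF114 overlaps NAD3, which itself had at most 1 count in a library.

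Length separated the libraries in nuclear genes but not in mitochondrial ones. Over 13682 nuclear genes the log2 level changed with each doubling of length by 0.144, 0.158 and 0.159 in atrx-1 libraries 1, 2 and 3 and by -0.231, -0.0628 and -0.167 in wild-type libraries 1, 2 and 3. Over the 40 tested mitochondrial rows without rRNA the slopes were -0.0221, -0.0059 and 0.0645 in atrx-1 and -0.0055, -0.0224 and -0.0087 in the wild type. The Spearman correlation between length and log2 fold change was 0.575 over the nuclear genes and 0.052 over the mitochondrial rows, as a description. Mitochondrial rows therefore mostly lay above the nuclear genes of their own length: 28 of 40 exceeded the median of the 500 nuclear genes nearest in length. A correction was fitted on the nuclear genes, whose length trend the mitochondrial rows did not share, and applied to all rows. It moved the median of the 42 rows to 0.24, with 28 above and 14 below 0. None passed an edgeR adjusted p of 0.05, beside 0.0289% of all features. After that correction the correlation with length over the mitochondrial rows was -0.469. ATP9, NAD9, RPL2 and ORF240A stayed negative, at -0.43, -0.29, -0.45 and -0.43. The highest corrected values were those of ORF106F and NAD1B, at 1.37 and 1.36, with edgeR adjusted p of 0.118 and 0.228, against 0.70 and 0.65 without the correction.

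**Figure D5:**
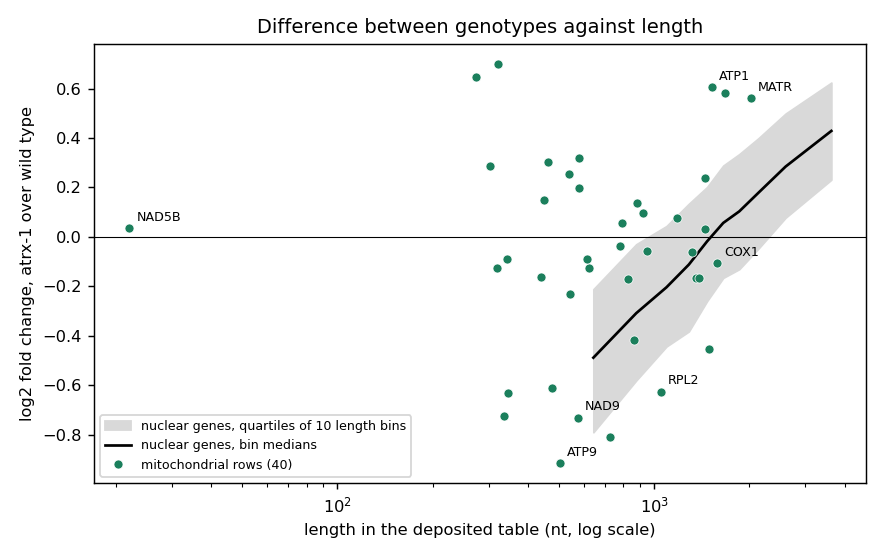
Log2 fold change of atrx-1 over wild type against row length (log scale), for 40 mitochondrial rows (points) over the bin medians (line) and quartiles (band) of nuclear genes in 10 length bins. Nuclear medians climb from -0.49 in the shortest bin to 0.43 in the longest, while the mitochondrial points show no slope.

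Nuclear genes that serve mitochondria were set beside these rows as lists. Of 25 tested nuclear genes for subunits of the respiratory chain and ATP synthase or for their assembly, 0 passed an edgeR adjusted p of 0.05. An unadjusted p under 0.05 was found in 6 of them, all below 0, beside 19.5% of all features in either direction. The genotypes did not overlap in 12 of the 25, 11 with atrx-1 below and 1 above, beside 23.6% of all features. With and without the length correction 7 lay above and 18 below 0. The median log2 fold change was -0.27, or -0.20 with the length correction, and the list was not tested as a set. The smallest p belonged to CI23 and FRO1, both complex I subunits, at -0.91 ± 0.19 and -0.81 ± 0.18 (SE; edgeR adjusted p = 0.0597 and 0.0675). SDH2-2, the iron-sulfur subunit of succinate dehydrogenase, stood at -0.96 ± 0.24 (SE; edgeR adjusted p = 0.0782). With the length correction CI23, FRO1 and SDH2-2 stood at -0.73, -0.48 and -0.81, with edgeR adjusted p of 0.254, 0.418 and 0.254. In CI23 the level was 33.6 ± 2.23 CPM in atrx-1 and 63.5 ± 8.48 CPM in the wild type (SD, n = 3 each).

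Of 22 listed factors that transcribe, edit or splice mitochondrial RNA only 6 passed the filter, all 6 above 0, with a median of 0.39, and 0 past the threshold. RPOTm, the mitochondrial RNA polymerase, was at 7.89 ± 1.95 CPM in atrx-1 and 3.78 ± 1.17 CPM in the wild type (SD, n = 3 each) and a log2 fold change of 1.07 ± 0.33 (SE; edgeR adjusted p = 0.115). The splicing factors OTP439 and mCSF1 stood at 0.77 ± 0.44 and 0.56 ± 0.36 (SE). The 6 tested factors are long genes, with a median of 2429 nt, and with the length correction 3 lay above and 3 below 0. RPOTm then stood at 0.66 (edgeR adjusted p = 0.501). Of 11 tested genes of alternative respiration, 4 lay above and 7 below 0, none past the threshold, with NDB1 and NDA1, alternative NAD(P)H dehydrogenases, at 0.79 ± 0.32 and 0.43 ± 0.26 and PUMP5, an uncoupling-protein family carrier, at -1.07 ± 0.50 (SE).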

How the data were processed

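Members and lists were chosen with earlier results of these data known. The submitters' processing notes name HTSeq 0.6.1, TopHat2 2.0.14 with Bowtie2 2.1.0, DESeq, DESeq2 1.6.3, CASAVA 1.8.2 and the build TAIR10. The authors deposited raw read counts per gene, the input of every test here. The ratio of the normalized signal to the signal per kb, both deposited for each library per the file headers, gave row length. Their fold changes are blank for all 83 mitochondrial rows. The sources used here give no strand setting.

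Differences were tested with edgeR 4.0.16 in R 4.3.3 (TMM, filterByExpr with minimum count 10 and total 15, glmQLFit and glmQLFTest, genotype only), with Benjamini-Hochberg adjustment over 13819 features. The SE given with an edgeR log2 fold change is its absolute value divided by the square root of the F statistic of its test. The code was tested on simulated data. The length correction was an offset per library from a spline of 4 degrees of freedom on log length, fitted on the tested nuclear genes and applied to every row. Nuclear copies were found with BLAST 2.17.0 and exact 50 nt windows in TAIR10.1. Pairs share at least 50% of the coding bases; pairing by sequence, and the sum of both rows, were chosen after seeing the data. Named were all tested rows of known protein or rRNA, any row past the threshold under an alternative other than a left-out library, and the open reading frames with the 5 highest levels per kb and 5 smallest p; COB, other untested rows and AT2G copies were named after their values were seen. Alternatives were DESeq2 1.42.0, other scalings and filters, a replicate block, the length offset and leaving out each library.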

Additional observations from a re-analysis of the deposited data

How the results depend on the processing

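The share difference of -0.227 percentage points kept its direction under every alternative run, from -0.416 to -0.0993 with one library left out. No member was called under RLE size factors, nuclear-gene scaling, library totals, the stricter filter (37 members left), the length offset or the summed copies. DESeq2 called 2 (NAD9 -0.72, ATP9 -0.91), the fit without a low-count filter 1 (ATP9 -0.87), scaling to mitochondrial totals 1 (ORF106F 1.08), and left-out libraries 0 to 5; the cause was not tested. The median of -0.07 reversed to 0.13 under library totals, 0.24 under mitochondrial totals, 0.24 with the length offset and 0.25 with length offset and replicate block, and ran from -0.12 to 0.0073 with one library left out. The median of all features also moved, to 0.22 under library totals and 0.35 under mitochondrial totals, so relative to it the members stood at -0.09 and -0.10, as in the main fit (-0.09), but at 0.28 with the length offset. Replicate numbers did not pair the samples (correlations 0.0644, 0.0571 and -0.0791, and not every sample correlated best with its own number); the replicate block called 0 members, with 34 calls over all features beside 16, a median of -0.05 and a share difference of -0.227 (paired sign-flip, exact permutation p = 0.5). Over all features calls were 210 with DESeq2, 38 under RLE, 0 under library totals, 585 under mitochondrial totals, 592 without the filter and 4 with the length offset.

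Single genes changed sign as follows. NAD5B was -0.047 with DESeq2 and -0.046 with the replicate block, and COX2 was 0.0036 without the filter. Under library totals CCB206 was 0.10, COX2 0.16, CCB452 0.053, ATP6-1 0.14, NAD1C 0.072, CCB203 0.10, ATP6-2 0.036, ORF113 0.12 and COX1 0.093. Under mitochondrial totals NAD5C was 0.069, CCB206 0.21, COX2 0.25, CCB452 0.20, ATP6-1 0.21, NAD1C 0.24, CCB203 0.29, ATP6-2 0.12, ORF113 0.21 and COX1 0.20. With the length offset NAD5C was 0.21, CCB206 0.31, COX2 0.25, NAD1C 0.52, CCB203 0.38, ORF114 0.0095 and ORF113 0.50. With length offset and replicate block they were 0.22, 0.37, 0.27, 0.54, 0.34, 0.014 and 0.48, and ORF111D was 0.036. With copies summed, an alternative chosen after seeing the data, CCB452 was 0.22 and NAD4 0.19. With one library left out, ranges that crossed 0 were NAD5B -0.18 to 0.21, COX2 -0.094 to 0.0062, ATP6-1 -0.26 to 0.12, COX3 -0.053 to 0.073, CCB203 -0.68 to 1.53, ORF113 -0.33 to 0.12, NAD1C -0.31 to 0.22, NAD7 -0.13 to 0.49, RRN18 -1.55 to 0.090, RPL16 -0.043 to 0.98, CCB206 -0.31 to 0.15 and ORF25 -0.22 to 1.22. Of the 83 members 41 were below the filter, among them all tRNAs, and were not compared; for rows with a nuclear copy the mitochondrial count alone does not show the transcript's level, and the part of depth was not tested.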
